A study of Mus musculus with 18 samples.

Results

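The semaphorins and their plexin receptors, the ephrins and their Eph receptors, the Slit ligands and their Robo receptors, and the netrins and their Unc5 receptors were read across the cell types of the mouse glomerulus. Members were taken by symbol: a gene belonged if its whole symbol was *Sema*, *Plxna* to *Plxnd*, *Epha*, *Ephb*, *Efna*, *Efnb*, *Robo*, *Slit*, *Ntn* or *Unc5* followed by digits and letters. This gave 76 genes of the 22909 symbols on the array. Of these, 68 belong to the guidance families, and 8 are other genes whose symbols begin with the same letters (*Slitrk1* to *Slitrk6*, *Unc50* and *Unc5cl*). Each gene was represented by its transcript cluster with the highest mean signal over 18 arrays. 12 of the 76 genes had several transcript clusters, and for 4 the chosen cluster carried several symbols, among them that of *Ntng2*.

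The arrays came from a study of podocytes, mesangial cells and endothelial cells of *Cd2ap* mutant mice, a model of glomerular disease in which an adaptor protein of the podocyte slit diaphragm is lost. Mutants carried the *Cd2ap* tm1Shaw allele (a B6.129X1 stock, labelled *Cd2ap*-/-), and all mice were 5 weeks of age. Within a cell type both genotypes carried the same GFP reporter transgene, with a different one for each cell type (*Meis1-GFP* for mesangial and *Tie2-GFP* for endothelial cells), and the GFP positive cells were sorted from dissociated glomeruli, so that cell type and reporter strain cannot be told apart. Each of the 6 groups had 3 arrays, described as biological triplicates. How many mice stand behind an array is not given in the sources used here. In the table the mesangial controls bear the mark +:-, which differs from that of the other controls, and their titles say control, but their genotype label, like that of the other controls, reads wild type. That name is used here, and which genotype the mark stands for was not settled. Comparisons of mesangial controls with other cell types, and interactions with mesangial cells, could therefore also hold a difference in control genotype. Arrays are called A, B and C within a group, in the order of their columns. In sorted pools a smaller number of cells of a type and less RNA per cell cannot be told apart.

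Guidance proteins were named for steering axons, and most act at short range between neighbouring cells. Secreted or membrane-bound ligands bind receptors on the facing cell and change its adhesion and actin cytoskeleton, and semaphorins, ephrins and Slits usually repel. Ephrins and Eph receptors can signal in both directions, ephrin-A proteins being held in the membrane by a lipid anchor and ephrin-B proteins by a transmembrane segment. In the kidney these families are known from the growth of glomerular capillaries, from the recruitment of mesangial cells and from the actin-rich foot processes of podocytes.

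*Cd2ap* was read first, as a check of the labels. Its signal was 819, 870.4 and 797 in arrays A, B and C of mutant mesangial cells and 922, 1037 and 1123 in wild type ones, a log2 difference of -0.31 (standard error 0.10, adjusted p = 0.151). The podocyte values were 1512, 1503 and 1478 in mutants and 2108, 1670.4 and 1546 in wild type, a difference of -0.23 (standard error 0.15, adjusted p = 0.504), and in endothelial cells the difference was 0.18 (standard error 0.09, adjusted p = 0.336). A loss was not shown in any cell type, so every direction below rests on the labels.

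The sorted cells carried the markers of their label. The summed signal of 10 podocyte markers was 14219 to 17849 in podocyte arrays and 1623 to 1833 in endothelial arrays, and *Itga8*, an integrin of mesangial cells, read 1886 to 3126 in mesangial and 49.7 to 96.4 in endothelial arrays. Mesangial wild type array C stood apart: the podocyte sum was 4199 there against 1070 and 1222 in arrays A and B, and that of 12 endothelial markers 10415 against 4877 and 5142. In podocytes the endothelial sum was 5451 to 7053 in wild type and 1072 to 3497 in mutant arrays, and that of 9 mesangial markers 3790 to 4768 and 1191 to 3722. In mesangial cells the mesangial sum was 11761 to 12906 in wild type and 8673 to 9741 in mutants. Between genotypes of endothelial cells none of the 12 endothelial markers was called, but 10 of the 12 means were higher in mutants (median log2 difference 0.23, 4 with an unadjusted p under 0.05 in limma), and their sum was 20757 to 21683 in mutant and 18441 to 20429 in wild type arrays, without overlap. Pearson's r between arrays of a group, across genes, was 0.967 to 0.971 in mutant podocytes and at least 0.980 in every other group.

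**Figure D1:**
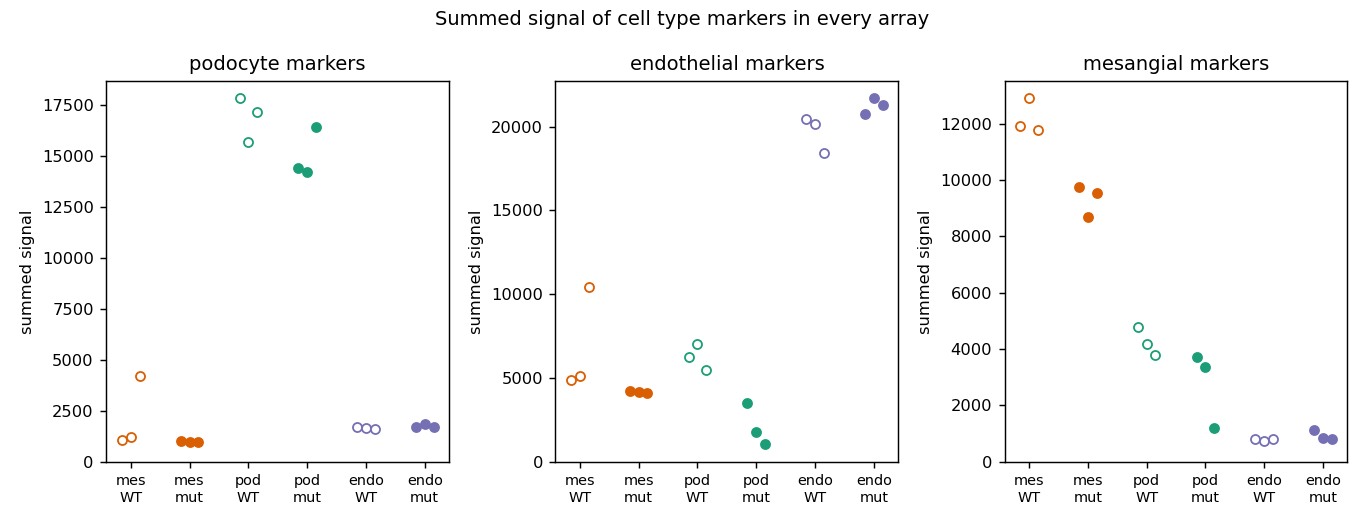
Summed signal (linear axis) of 10 podocyte, 12 endothelial and 9 mesangial marker genes in each of the 18 arrays, with open points for wild type and filled points for mutant arrays. Mesangial wild type array C lies above the other mesangial arrays for podocyte markers (4199) and endothelial markers (10415), and endothelial markers are lower in mutant than in wild type podocyte arrays.

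A signal of at least 100, the minimum that the study's methods ask for, was reached in at least 1 array by 38 of the 76 genes, and by 37 of the 68 guidance genes. Among ligands these were 4 of 7 secreted semaphorins (*Sema3b*, *Sema3e*, *Sema3f* and *Sema3g*), 7 of 13 membrane-bound semaphorins, 2 of 5 ephrin-A and 2 of 3 ephrin-B genes, 1 of 3 Slit genes (*Slit3*) and 2 of 6 netrins (*Ntn4* and *Ntng2*). Among receptors they were 7 of 9 plexins, 5 of 9 EphA and 2 of 5 EphB receptors, 3 of 4 Robo receptors and 2 of 4 Unc5 receptors. The other 31 guidance genes stayed between 26.7 and 99.0 in every array, among them *Slit2*, *Sema3a*, *Sema3c*, *Ntn1*, *Ephb2* and *Robo3*. The genes just under the minimum were *Ntn3* with a highest signal of 99.0 and *Ntng1* with 96.9, and those just over it were *Epha6* with 112.7, *Ephb1* with 120.0 and *Plxnc1* with 122.7. Of the 8 genes outside the families, *Unc50* was over the minimum. A signal under 100 in these arrays does not show that a gene is not transcribed.

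**Figure D2:**
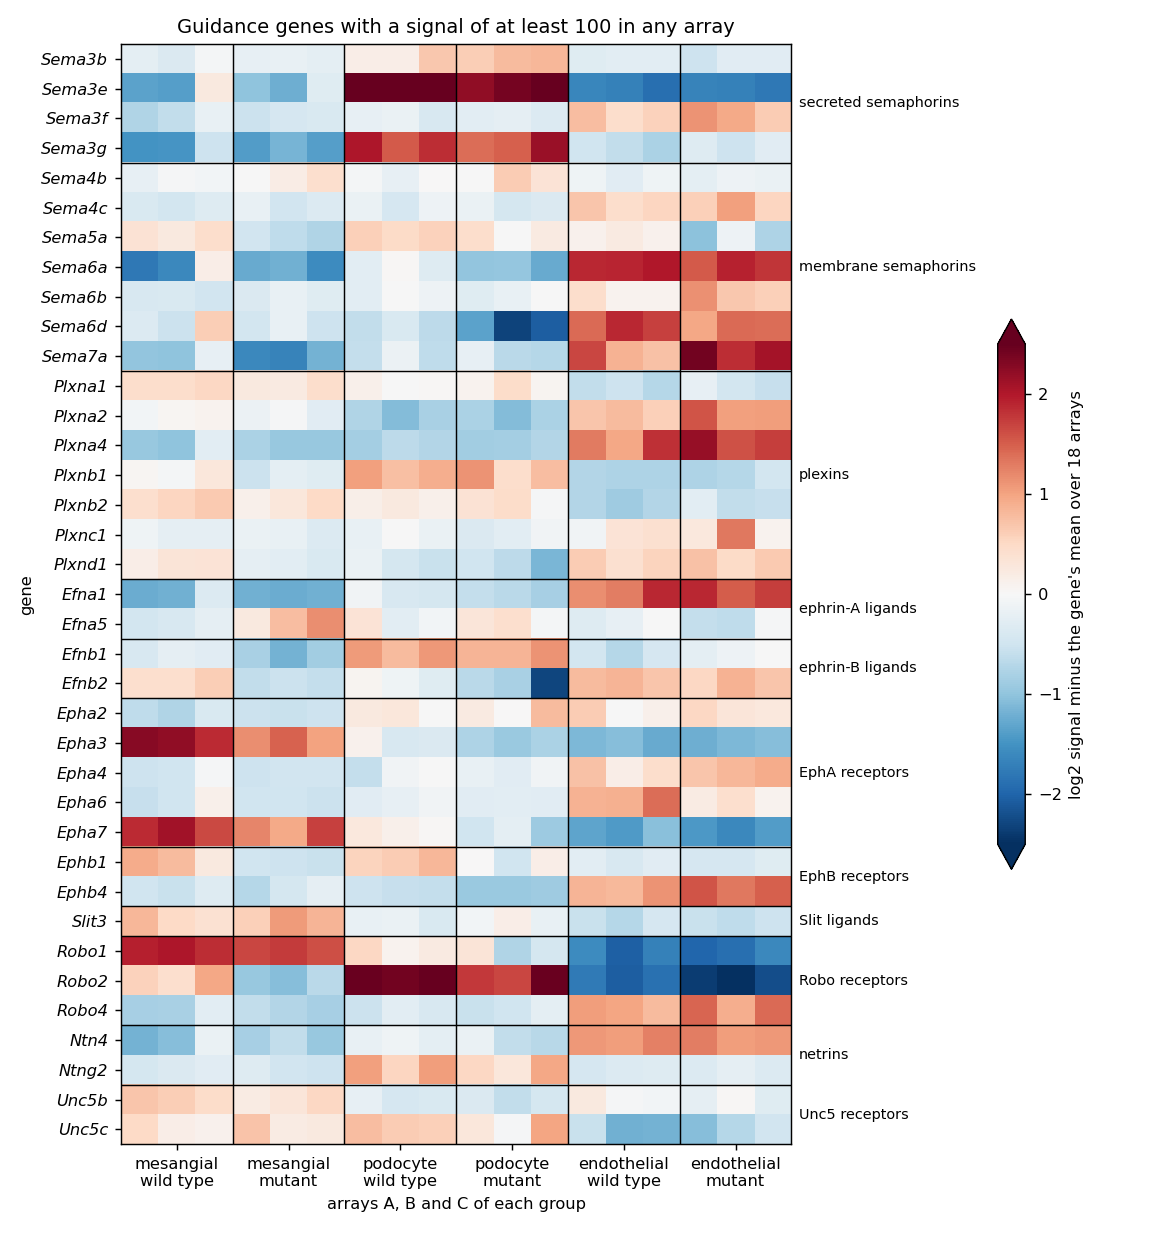
Log2 signal minus the gene's mean over the 18 arrays for the 37 guidance genes that reached a signal of 100 in at least 1 array, with genes in rows by family and the 3 arrays of each group in neighbouring columns. Red marks a signal above and blue below the gene's own mean, and most blocks of colour follow the cell type, with *Sema3e*, *Sema3g* and *Robo2* red in podocytes, *Epha3*, *Epha7* and *Robo1* in mesangial cells and *Sema6a*, *Sema6d* and *Sema7a* in endothelial cells.

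The promoters shown are those of *Efnb2*, *Efnb1*, *Sema5a* and *Sema7a*, because these 4 genes were called lower in mutant mesangial cells, where the most members were called, and *Sema7a* and *Sema5a* were called in endothelial cells too. The windows of *Robo2*, *Epha3* and *Ephb1*, called lower there as well, are described after them. Each run holds the 250 bases before the transcription start in RefSeq on GRCm38.p6, read 5′ to 3′ on the strand of the gene. *Efnb2* lies on the minus strand at chr8:8661243-8661492, *Sema5a* on the plus strand at chr15:32244563-32244812, *Efnb1* on the plus strand at chrX:99135811-99136060 and *Sema7a* on the plus strand at chr9:57939862-57940111. Capitals mark the letters of the GC box, GGGCGG, searched on both strands, so that a match on the other strand reads CCGCCC.
Efnb2: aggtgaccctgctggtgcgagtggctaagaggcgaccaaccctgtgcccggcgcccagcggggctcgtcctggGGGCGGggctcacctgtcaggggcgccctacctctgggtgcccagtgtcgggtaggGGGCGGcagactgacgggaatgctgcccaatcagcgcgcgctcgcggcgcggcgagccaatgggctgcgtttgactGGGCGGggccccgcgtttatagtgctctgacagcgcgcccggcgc
Sema5a: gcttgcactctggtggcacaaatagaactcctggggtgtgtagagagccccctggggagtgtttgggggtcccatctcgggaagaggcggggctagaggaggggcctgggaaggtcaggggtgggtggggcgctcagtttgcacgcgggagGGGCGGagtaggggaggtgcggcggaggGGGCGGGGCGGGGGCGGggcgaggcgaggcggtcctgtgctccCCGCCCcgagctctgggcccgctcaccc
Efnb1: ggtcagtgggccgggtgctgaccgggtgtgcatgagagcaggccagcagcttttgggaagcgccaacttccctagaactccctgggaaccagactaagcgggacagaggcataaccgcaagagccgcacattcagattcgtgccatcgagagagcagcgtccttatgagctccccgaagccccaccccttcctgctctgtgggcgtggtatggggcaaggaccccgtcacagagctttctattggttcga
Sema7a: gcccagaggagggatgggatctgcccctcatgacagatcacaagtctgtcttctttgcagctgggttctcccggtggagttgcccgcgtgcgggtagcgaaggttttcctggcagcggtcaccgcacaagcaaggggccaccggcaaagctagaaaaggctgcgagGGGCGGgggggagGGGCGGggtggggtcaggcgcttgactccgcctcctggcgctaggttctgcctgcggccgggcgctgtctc
The share of G and C was 72% for *Efnb2* and *Sema5a*, 60% for *Efnb1* and 66.4% for *Sema7a*, against a median of 52.4% over 32841 promoter windows of the same length. GGGCGG was found 3 times in the window of *Efnb2*, 5 times in that of *Sema5a* with some of the matches overlapping, 2 times in that of *Sema7a* and not in that of *Efnb1*. Of all windows 32.7% held it. TATAAA was found in the window of *Efnb2* (as TTTATA on the other strand) and in 12.4% of all windows, TGGGAA in those of *Sema5a* and *Efnb1* and in 21.6% of all windows, and TGANTCA, the letters bound by AP-1 proteins, in none of the 4 and in 6.75% of all. The windows of *Ephb1*, with 54% G and C, of *Epha3*, with 62.8%, and of the 3 starts of *Robo2*, with 44.8% to 65.6%, held no GGGCGG, so that the 7 genes called lower do not share these letters. Windows were given for 66 of the 76 genes.

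The wild type arrays show in which sorted cells the guidance genes had the highest signal. Podocyte arrays also held signal of mesangial markers, with sums of 3790 to 4768 against 11761 to 12906 in mesangial arrays. Their sums of endothelial markers were 5451 to 7053, against 18441 to 20429 in endothelial arrays. The part of other cells in the podocyte values was not tested. Of the 35 members that reached the minimum in a wild type array, 33 differed between at least 1 pair of cell types (adjusted p under 0.05 and a fold over 1.5), and the exceptions were *Sema5a* and *Unc50*. The mean was highest in endothelial cells for 18 of the 35, in podocytes for 9 and in mesangial cells for 8. Between podocytes and mesangial cells 7 members were called higher and 8 lower in podocytes, where 5.9% and 9.24% of the 12537 transcript clusters tested were called. Between endothelial and mesangial cells 15 were higher and 10 lower in endothelial cells, against 7.91% and 9.58% of all clusters, and between podocytes and endothelial cells 14 were higher and 15 lower in podocytes, against 9.83% and 11.6%. These shares are larger than the background in each comparison. The 3 comparisons share their groups and are not independent.

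Of the 4 secreted semaphorins tested, *Sema3e* and *Sema3g* were higher in podocytes than in both other cell types. *Sema3e*, whose product repels endothelial cells through plexin D1, had signals of 871, 763 and 948 in podocyte arrays, 50.4, 49.5 and 151 in mesangial and 41.5, 39.9 and 34.8 in endothelial arrays. The podocyte arrays lay far above all others, and the highest value outside them came from mesangial array C. The log2 difference was 4.47 (standard error 0.36, adjusted p = 1.54e-05) against endothelial and 3.57 (standard error 0.36, adjusted p = 8.61e-05) against mesangial cells. The endothelial signals, and mesangial arrays A and B, were under the minimum of 100, so that the exact size of these differences is uncertain. A second transcript cluster that lists *Sema3e* together with *Chmp6* did not share this pattern, with 135 to 178 in wild type podocytes and 110 to 156 in endothelial arrays.

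*Sema3g*, a semaphorin known from blood vessels and podocytes, had 777, 556 and 685 in podocytes, 67.6, 68.5 and 134 in mesangial and 136, 124 and 111 in endothelial cells. Again every podocyte array was above every other array. The differences were 2.97 (standard error 0.25, adjusted p = 3.18e-05) against mesangial cells and 2.43 (standard error 0.25, adjusted p = 6.22e-05) against endothelial cells. *Sema3b* was called higher in podocytes than in endothelial cells, with 83.5, 82.8 and 117 against 60.0, 61.3 and 61.3, a difference of 0.62 (standard error 0.14, adjusted p = 0.0069). Among wild type arrays it reached a signal of 100 only in podocyte array C, and without that array it was not called. *Sema3f* went the other way, with 287, 229.7 and 252 in endothelial cells against 146, 150.4 and 128 in podocytes, a difference of podocytes minus endothelial cells of -0.86 (standard error 0.15, adjusted p = 0.00184).

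Ephrin-B1 and the Robo receptors also separated the cells. *Efnb1*, whose product has been found at the slit diaphragm, had 492, 406 and 498 in podocytes, 179.7, 201 and 195 in mesangial cells and 172, 143 and 176 in endothelial cells, so that podocytes were apart and the other 2 cell types lay close together without overlap. It was 2.42-fold higher in podocytes than in mesangial cells (adjusted p = 5.18e-05) and 2.84-fold higher than in endothelial cells (adjusted p = 1.22e-05). *Robo2*, a Slit receptor that binds nephrin through the adaptor Nck, had 1141, 1099.9 and 1369.9 in podocytes, 305, 273 and 399 in mesangial cells and 60.5, 49.0 and 56.5 in endothelial cells. The 3 cell types formed separate steps, and each pair was called, with 4.44 (standard error 0.15, adjusted p = 7.08e-08) between the ends of the order. The endothelial signals were under the minimum of 100, so that the exact size of this difference is uncertain.

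*Robo1* had another order. Its signals were 880.1, 939.9 and 824 in mesangial cells, 331, 245 and 269.7 in podocytes and 77.8, 55.7 and 71.5 in endothelial cells. Mesangial cells were highest and each pair was called, with -3.70 (standard error 0.15, adjusted p = 1.34e-07) for endothelial against mesangial cells. The size of this difference is uncertain too, because the endothelial signals were under the minimum of 100. *Robo4*, the endothelial Robo, was highest in endothelial cells at 198, 190.3 and 166, against 54.0 to 80.8 elsewhere, a difference of 1.57 (standard error 0.16, adjusted p = 7.04e-05) from mesangial cells. For the ligands, *Slit3* was higher in mesangial cells, at 177, 141 and 131, than in podocytes, at 87.5, 88.5 and 77.1, or in endothelial cells, at 68.2, 60.7 and 74.7. The log2 difference of podocytes minus mesangial cells was -0.82 (standard error 0.13, adjusted p = 0.00142) and that of endothelial minus mesangial cells -1.13 (standard error 0.13, adjusted p = 0.000161).

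Mesangial cells carried the EphA receptors 3 and 7, tyrosine kinases that bind ephrin-A ligands. *Epha3* had 366, 351 and 277 in mesangial cells, 82.4, 57.4 and 58.8 in podocytes and 34.9, 36.3 and 31.7 in endothelial cells. *Epha7* had 386, 455 and 335 in mesangial cells, 127, 115 and 108 in podocytes and 42.9, 39.7 and 51.5 in endothelial cells. In both genes the mesangial arrays were highest, the endothelial arrays lowest and no groups overlapped, and each pair of cell types was called. Against podocytes *Epha3* was 5.04-fold and *Epha7* 3.34-fold higher in mesangial cells (adjusted p = 1.36e-05 and 2.40e-05). All podocyte signals of *Epha3* were under the minimum of 100, so that the exact size of its fold is uncertain.

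Of the netrin receptors, *Unc5b* was higher in mesangial cells, at 169.8, 160.3 and 143, than in podocytes, at 91.1, 77.9 and 80.3, a difference of -0.93 (standard error 0.12, adjusted p = 0.000311). *Unc5c* had 298, 273 and 266 in podocytes and 247, 197 and 188 in mesangial cells, where the podocyte arrays were all higher but the difference of 0.42 (standard error 0.18, adjusted p = 0.109) was not called. It was lower in endothelial cells, at 119.7, 76.7 and 77.3, with a difference of podocytes minus endothelial cells of 1.64 (standard error 0.18, adjusted p = 8.64e-05). Of the netrins, *Ntng2*, a lipid-anchored netrin, was highest in podocytes at 189, 136 and 191, a difference of 1.23 (standard error 0.13, adjusted p = 0.000117) from mesangial cells, and no array of the other 2 wild type cell types was above 76.8. Its transcript cluster also lists 6530402F18Rik.

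The membrane-bound semaphorins *Sema6a*, *Sema6d* and *Sema7a* and the ligand *Efna1* were highest in endothelial cells. *Sema6a* had 865, 886 and 937 in endothelial cells, 195, 241 and 189 in podocytes and 68.2, 77.1 and 262 in mesangial cells, where array C stood apart from A and B. *Sema6d* had 1019.9, 1399.8 and 1251 in endothelial cells, 249, 293 and 242 in podocytes and 301, 263 and 582 in mesangial cells, with array C again apart. Endothelial arrays were above all others for both genes, with 3.01 (standard error 0.42, adjusted p = 0.000475) for *Sema6a* and 1.76 (standard error 0.26, adjusted p = 0.000752) for *Sema6d* against mesangial cells.

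*Sema7a*, a lipid-anchored semaphorin that binds plexin C1 and integrins of the beta-1 class, had 685, 396 and 357 in endothelial cells, 144, 195 and 139.6 in podocytes and 109, 108 and 188 in mesangial cells. The endothelial arrays did not overlap with the rest, while podocyte and mesangial arrays did overlap with each other. *Efna1*, the usual ligand of the receptor EphA2, had 312, 338 and 516 in endothelial cells, 132, 105 and 103 in podocytes and 59.3, 60.7 and 109 in mesangial cells. Endothelial arrays were again above the rest. *Ntn4*, a netrin of basement membranes, had 471, 459 and 536 in endothelial cells, 196, 205 and 188 in podocytes and 97.5, 107 and 199 in mesangial cells. For all 3 genes mesangial array C was the highest of its group. Against mesangial cells the endothelial differences were 1.82 (standard error 0.28, adjusted p = 0.00101) for *Sema7a*, 2.37 (standard error 0.26, adjusted p = 0.000109) for *Efna1* and 1.93 (standard error 0.23, adjusted p = 0.000174) for *Ntn4*.

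The plexins divided between the cell types. *Plxna2* and *Plxna4*, receptors of class 6 semaphorins that also pair with neuropilins, were highest in endothelial cells: *Plxna4* had 314, 251 and 452 there and 63.5 to 106 elsewhere, and *Plxna2* had 274, 294 and 256 in endothelial, 162, 175 and 181 in mesangial and 100.5, 79.8 and 96.8 in podocyte arrays. *Plxnb1*, the receptor of Sema4D, was highest in podocytes at 265, 220.2 and 247, against 135, 126 and 159 in mesangial and 78.7, 76.2 and 76.6 in endothelial cells. *Plxnb2* was highest in mesangial cells at 225, 244 and 265, with 187, 201 and 184 in podocytes and 102, 91.2 and 101 in endothelial cells, -1.32 (standard error 0.09, adjusted p = 6.69e-06) for endothelial minus mesangial. The second transcript cluster of *Plxnb1* did not share its pattern, with 85.8 to 97.2 in podocytes and 82.5 to 101 in endothelial cells.

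*Ephb4*, the receptor of ephrin-B2 that marks veins, and *Efnb2*, the ligand that marks arteries, were both highest in endothelial cells. *Ephb4* had 269.7, 265 and 329 there and 100.1 to 120.0 elsewhere. *Efnb2* had 2311, 2408 and 2163 in endothelial, 1803, 1788 and 2050.5 in mesangial and 1401, 1241 and 1095 in podocyte arrays. Endothelial and mesangial cells did not differ past the threshold for *Efnb2*, with a difference of 0.29 (standard error 0.11, adjusted p = 0.0733), while podocytes were lower than both, with -0.60 (standard error 0.11, adjusted p = 0.00305) against mesangial cells. Without mesangial wild type array C that call was lost, *Efna1*, *Ntn4*, *Sema3b* and *Sema6a* were gained as higher in podocytes than in mesangial cells, and the count of higher members rose from 7 to 11.

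**Figure D3:**
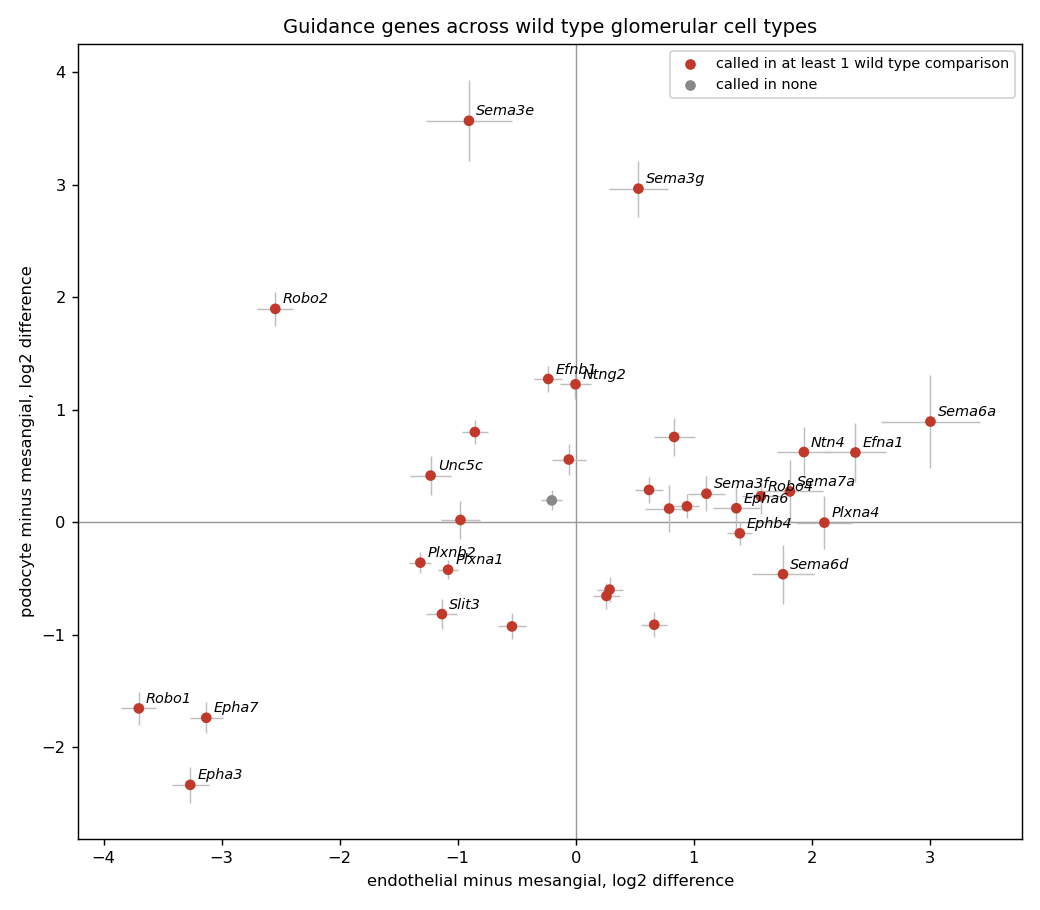
Log2 difference of endothelial minus mesangial cells (horizontal) and podocytes minus mesangial cells (vertical) in the wild type arrays, 3 a cell type, for 34 guidance genes, with bars for the standard error of the fit. Red points were called in at least 1 wild type comparison and the grey point in none, and both axes share the mesangial arrays. *Sema3e* and *Sema3g* lie at the top (3.57 and 2.97), *Sema6a* at the right (3.01), and *Robo1*, *Epha7* and *Epha3* at the lower left.

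Between genotypes the most members were called in mesangial cells. Of the 29 members tested there, 7 were called lower in mutants (unadjusted p under 0.05 and a fold over 1.5, the thresholds of the study's methods) and 1 higher, where 3.12% of 11457 transcript clusters were called lower and 2.08% higher. The 7 are 24.1% of the members tested. Of them 6, all but *Sema7a*, also had an adjusted p under 0.05, as had 1.32% of all clusters in that direction. They span ligands (*Efnb1*, *Efnb2*, *Sema5a* and *Sema7a*) and receptors (*Robo2*, *Epha3* and *Ephb1*). Over the 29 members the median log2 difference was -0.25, against -0.02 over all clusters tested, and 22 of the 29 means were lower in mutants. *Ephb1* and *Sema7a* reached a signal of 100 in wild type arrays only, so that their entry into the test depended on the group in which they were higher.

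Both ephrin-B ligands above the minimum were lower. *Efnb2* had 878, 928 and 890.0 in mutant arrays A, B and C and 1803, 1788 and 2050.5 in wild type arrays, 2.09-fold lower, with a log2 difference of -1.06 (standard error 0.09, adjusted p = 0.00492). The groups were far apart, and each was tight. *Efnb1* had 135, 104 and 129 in mutants and 179.7, 201 and 195 in wild type, also without overlap, with a log2 difference of -0.66 (standard error 0.12, adjusted p = 0.043). Without mutant array B the fold of *Efnb1* was under 1.5, with a log2 difference of -0.54. Among the receptors of these ligands, *Ephb1* had 44.6, 44.0 and 42.7 in mutants, under the minimum of 100, and 120.0, 109 and 74.2 in wild type, a difference of -1.18 (standard error 0.18, adjusted p = 0.0281). The wild type arrays were all higher, array C least so. A second transcript cluster of *Ephb1* read 37.5 to 42.1 in mutant and 42.5 to 44.6 in wild type mesangial arrays , all under the minimum and slightly lower in mutants. *Ephb4* had 92.0, 111 and 129 in mutants against 106, 102 and 120.0, with overlapping groups and a difference of 0.01 (standard error 0.14, adjusted p = 0.984).

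*Robo2* showed the largest fall of the members in mesangial cells. It had 106, 98.3 and 128 in mutants and 305, 273 and 399 in wild type arrays, 2.92-fold lower, a log2 difference of -1.54 (standard error 0.17, adjusted p = 0.0116). All wild type arrays were more than 2 times above all mutant arrays. Array C, in which podocyte markers were raised, had the highest wild type value, and without it the difference was -1.39 with an adjusted p of 0.00865. *Robo1*, its close relative, had 736, 776 and 699 against 880.1, 939.9 and 824, a difference of -0.26 (standard error 0.09, adjusted p = 0.168) that did not reach the fold threshold although the groups did not overlap. The ligand *Slit3* had 151, 209 and 179.9 against 177, 141 and 131, overlapping, with a difference of 0.27 (standard error 0.16, adjusted p = 0.393).

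*Sema5a*, a transmembrane semaphorin with thrombospondin repeats, had 428, 382 and 352 in mutant and 763, 701 and 808 in wild type mesangial arrays, a log2 difference of -0.97 (standard error 0.11, adjusted p = 0.0116). The groups were far apart. *Sema7a* had 71.1, 67.6 and 95.3 against 109, 108 and 188, where wild type array C was again the highest, and the difference of -0.76 (standard error 0.25, adjusted p = 0.149) was no longer called without that array (-0.49) or without mutant array A or B. *Epha3* had 171, 212 and 152 in mutants against 366, 351 and 277, without overlap, a difference of -0.90 (standard error 0.16, adjusted p = 0.0418). *Epha7* fell short of the fold threshold, with 249, 205 and 347 against 386, 455 and 335 and a difference of -0.58 (standard error 0.21, adjusted p = 0.182).

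The single member called higher was *Efna5*, a ligand of EphA receptors. Its signals were 65.9, 95.3 and 124 in mutants and 40.8, 42.5 and 48.1 in wild type arrays, with a log2 difference of 1.07 (standard error 0.22, adjusted p = 0.0593). All mutant arrays were higher, but only mutant array C reached a signal of 100, and without it the gene was not tested. Among the plexins all 6 tested means were lower in mutants and none was called: *Plxnd1*, the receptor of Sema3E, had 189.8, 185 and 170.3 against 247, 274 and 279.8, a difference of -0.56 (standard error 0.09, adjusted p = 0.0335) with a fold of 1.47. *Plxnb1* had 89.8, 110.0 and 106 against 135, 126 and 159, a difference of -0.46 (standard error 0.13, adjusted p = 0.107). Its second transcript cluster went the other way, with 79.7 to 85.2 in mutant and 72.1 to 76.2 in wild type mesangial arrays, all under 100. In all, the mutant arrays lay wholly below the wild type arrays for 10 of the 29 members and wholly above them for 2, where 16.3% and 12.3% of all clusters did so.

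Other values moved with the mesangial genotype. The markers *Art3*, *Des* and *Itga8* of mesangial cells and *Cd34*, *Ehd3* and *Tek* of endothelial cells were called lower in mutants, as was the podocyte marker *Wt1*, and the smooth muscle genes *Acta2* and *Tagln* were called higher. Of the 10 podocyte markers 9 had lower means in mutants, with a median log2 difference of -0.59. Of the 12 endothelial markers 11 had lower means in mutants, with a median of -0.43. The summed endothelial markers did not overlap, at 4072 to 4216 in mutant and 4877 to 10415 in wild type mesangial arrays. Of the 7 lower members 3 (*Robo2*, *Efnb1* and *Sema5a*) had their highest wild type mean in podocytes, but *Sema5a* was called in no wild type comparison. *Efnb2* and *Sema7a* had theirs in endothelial cells, though *Efnb2* was not called between wild type endothelial and mesangial cells. *Epha3* and *Ephb1* had theirs in mesangial cells. The summed mesangial markers did not overlap between genotypes (8673 to 9741 and 11761 to 12906). The part of these shifts in the guidance genes was not tested. Without wild type array C, *Robo2*, *Efnb2*, *Sema5a*, *Epha3*, *Ephb1*, *Efnb1* and *Efna5* were still called, *Sema7a* was not, and *Epha7* was added.

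**Figure D4:**
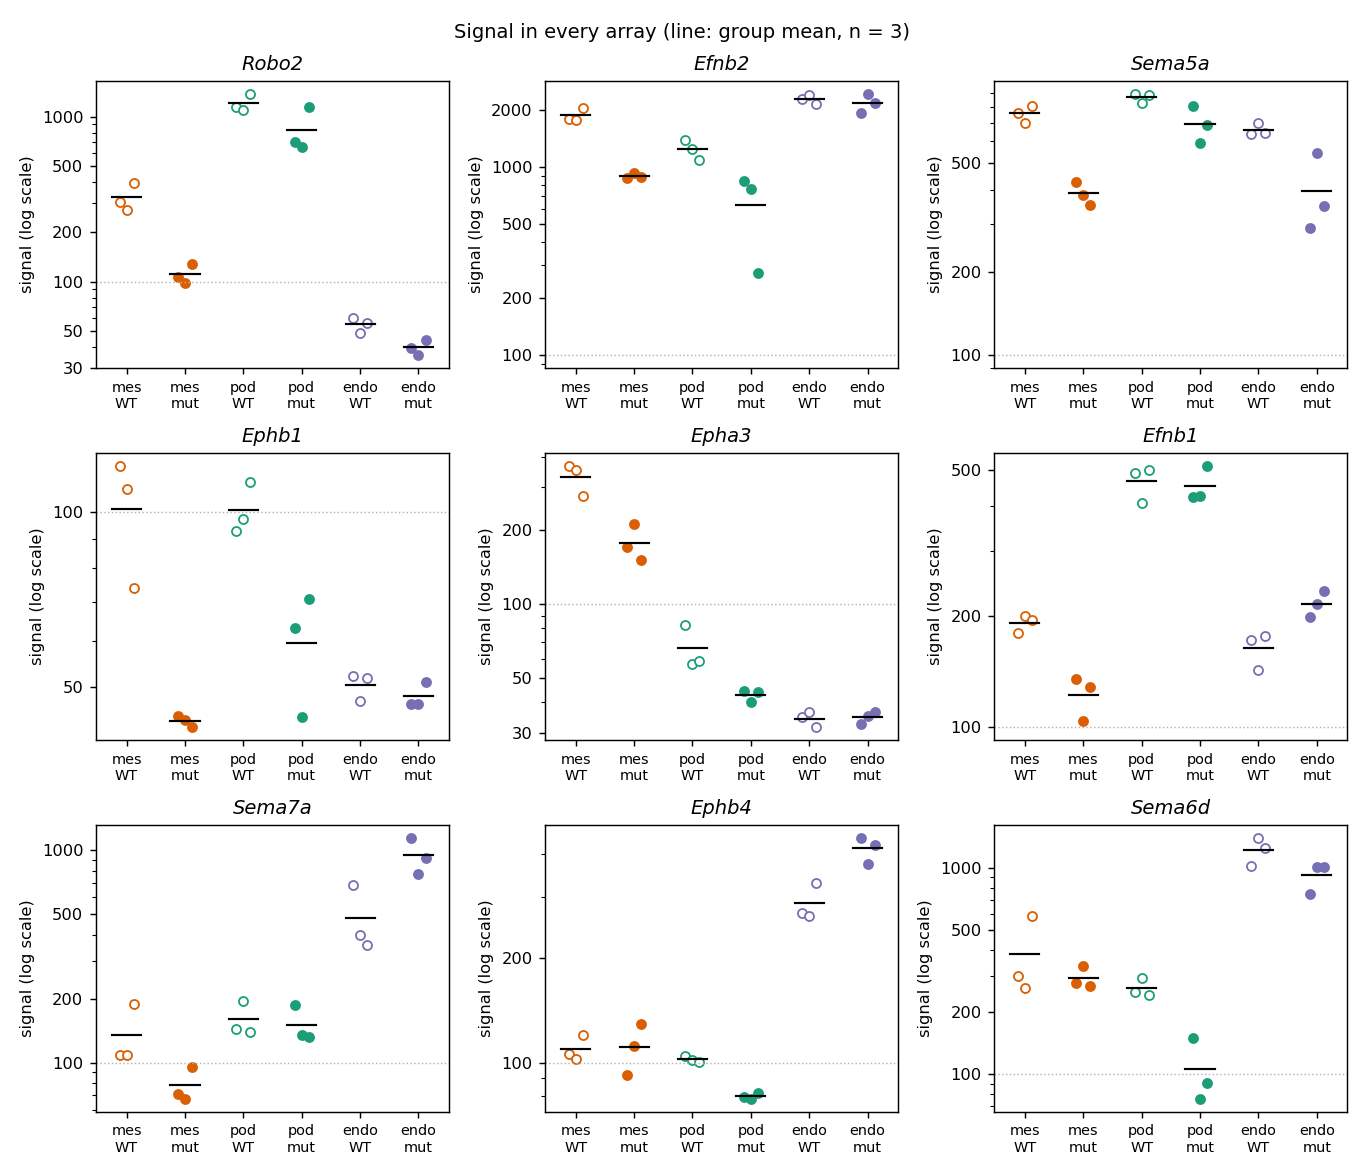
Signal (log axis) of 9 guidance genes in each of the 18 arrays, with open points for wild type (WT) and filled points for mutant (mut) arrays of mesangial cells (mes), podocytes (pod) and endothelial cells (endo), a line for the group mean and a dotted line at a signal of 100. Mutant mesangial arrays lie below all wild type mesangial arrays for *Robo2* (98.3 to 128 against 273 to 399) and *Efnb2* (878 to 928 against 1788 to 2050.5), while *Sema7a* lies lower in mutant mesangial and higher in mutant endothelial arrays.

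In podocytes 5 of the 29 members tested were called lower in mutants and none higher, where 4.34% of 12113 transcript clusters were called lower and 1.26% higher. None of the 5 had an adjusted p under 0.05, as 0.0578% of all clusters did, and limma gave an unadjusted p under 0.05 for 10 of the 29, against 14.3% of all clusters. The median over the members was -0.26, against -0.04 over all clusters. *Sema6d*, a transmembrane semaphorin that binds plexin A1, had 150.3, 76.4 and 91.3 in mutants and 249, 293 and 242 in wild type arrays, 2.56-fold lower, with a log2 difference of -1.36 (standard error 0.25, adjusted p = 0.135). *Sema6a* had 119, 120.5 and 98.5 against 195, 241 and 189, a difference of -0.88 (standard error 0.15, adjusted p = 0.134). In both genes the groups did not overlap.

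*Efnb2* had 840.5, 769 and 275 in mutant and 1401, 1241 and 1095 in wild type podocyte arrays. Mutant array C was far below the others, and the difference of -1.14 (standard error 0.40, adjusted p = 0.271) was -0.62 without it. Without wild type array A *Efnb2* was not called. Of the receptors, *Epha7* had 75.1, 89.5 and 56.7 against 127, 115 and 108, a difference of -0.69 (standard error 0.18, adjusted p = 0.199), and *Ephb1* 63.2, 44.5 and 71.0 against 92.8, 97.4 and 112, a difference of -0.78 (standard error 0.19, adjusted p = 0.176). The groups did not overlap for either, but *Epha7* was not called without mutant array C (-0.51), and *Ephb1* reached a signal of 100 only in wild type array C. Both reached the minimum in wild type arrays only, so that the group in which they were higher brought them into the test. The second transcript cluster of *Ephb1* overlapped between genotypes, with 49.6 to 59.1 in mutant and 53.1 to 60.9 in wild type podocyte arrays.

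The mutant arrays lay wholly below the wild type arrays for 9 of the 29 members in podocytes and wholly above them for none, where 14.3% and 6.97% of all clusters did so. The genes that marked podocytes were not called. *Sema3g* had 505, 542 and 852 in mutants and 777, 556 and 685 in wild type, with overlap and a difference of -0.11 (standard error 0.23, adjusted p = 0.85). *Sema3e* had 592, 675 and 715 against 871, 763 and 948, without overlap, a difference of -0.38 (standard error 0.14, adjusted p = 0.296). *Efnb1* had 423, 424 and 513 against 492, 406 and 498, with overlap and a difference of -0.04 (standard error 0.15, adjusted p = 0.926). *Robo2* had 702, 657 and 1136 against 1141, 1099.9 and 1369.9, where mutant array C lay among the wild type arrays, with -0.57 (standard error 0.22, adjusted p = 0.319). Without that array it was called, at -0.82. *Robo1* had 287, 136 and 169 against 331, 245 and 269.7, with overlap.

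Of the 5 genes called lower in mutant podocytes, *Sema6d*, *Sema6a* and *Efnb2* had their highest wild type mean in endothelial cells and *Epha7* in mesangial cells. *Ephb1* had nearly equal means in wild type mesangial cells (101.2) and podocytes (100.9). Beside them, 11 of the 12 endothelial markers and 3 of the 9 mesangial markers (*Itga8*, *Meis1* and *Pdgfrb*) were called lower in the same arrays, as was 1 of the 10 podocyte markers (*Ptpro*). The smooth muscle and juxtaglomerular markers *Acta2* and *Ren1* and the leukocyte marker *Csf1r* were called higher. Summed endothelial markers were 6270, 7053 and 5451 in wild type arrays A, B and C and 3497, 1757 and 1072 in mutant arrays, so that the groups did not overlap. *Cdh5*, the cadherin of endothelial junctions, was above a signal of 100 in all 6 podocyte arrays, with 391, 277 and 123 in mutant and 813, 929 and 696 in wild type arrays. Whether these cells or their RNA account for the lower guidance genes was not tested.

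In endothelial cells 26 members were tested. 2 were called higher in mutants and 2 lower, where 2.96% and 0.865% of 11330 clusters were called. None of the 4 had an adjusted p under 0.05, as 1.13% of all clusters did, and 10 of the 26 had an unadjusted p under 0.05 in limma, against 18.5% of all clusters. The median over the members was 0.24, against 0.07 over all clusters, and 20 of the 26 means were higher in mutants. The summed endothelial markers were higher in the same mutant arrays, with a median over the 12 markers of 0.23. The 3 leukocyte markers tested also had higher means in mutants (median 0.45), and none was called. Summed leukocyte markers were 824, 648 and 526 in mutant arrays A, B and C and 538 to 592 in wild type arrays, with overlap. The part of these markers in the members' shift was not tested. *Sema7a* had 1144, 776 and 917 in mutants and 685, 396 and 357 in wild type arrays, 2.03-fold higher, with a log2 difference of 1.02 (standard error 0.25, adjusted p = 0.107). The groups did not overlap, wild type array A being nearest to the mutants. The gene was called with each of the 6 arrays left out.

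*Sema6b*, a relative of *Sema6a*, had 205, 147 and 139.6 in mutants and 125, 98.3 and 97.6 in wild type endothelial arrays, a difference of 0.61 (standard error 0.17, adjusted p = 0.138). A second transcript cluster of this gene gave nearly the same values in every array (139 to 205 and 97.4 to 125 in endothelial cells). Whether it shares probes with the first is not known here, so it is not taken as a separate measurement. The fold of *Sema6b* was close to the threshold, and the call was lost without mutant array A, wild type array B or wild type array C. *Sema5a* had 290.1, 545 and 349 against 636, 696 and 642, lower without overlap, a difference of -0.79 (standard error 0.21, adjusted p = 0.128). *Epha6* had 49.7, 57.8 and 45.9 against 78.1, 79.0 and 113, a difference of -0.80 (standard error 0.16, adjusted p = 0.0608), and only wild type array C reached a signal of 100, so that the gene was not tested without it.

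No receptor was called higher in mutant endothelial cells, although all 6 plexins tested had higher means in mutants. *Plxna2* had 503, 347 and 353 in mutants and 274, 294 and 256 in wild type, a difference of 0.53 (standard error 0.15, adjusted p = 0.152) just under the fold threshold. *Ephb4* had 445, 373 and 424 against 269.7, 265 and 329, without overlap, a difference of 0.53 (standard error 0.12, adjusted p = 0.0862). Both were called when each array's median was subtracted first, which brought the members called higher to 4. *Plxnc1*, the plexin that binds Sema7A, had 59.0, 123 and 52.5 against 45.9, 62.4 and 64.6, with only mutant array B over 100 and a difference of 0.35 (standard error 0.31, adjusted p = 0.563). *Efnb2* had 1932, 2444 and 2186 against 2311, 2408 and 2163, overlapping, with -0.07 (standard error 0.11, adjusted p = 0.744). The mutant arrays lay wholly above the wild type arrays for 6 of the 26 members and wholly below them for 3, where 17.7% and 7.34% of all clusters did so.

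**Figure D5:**
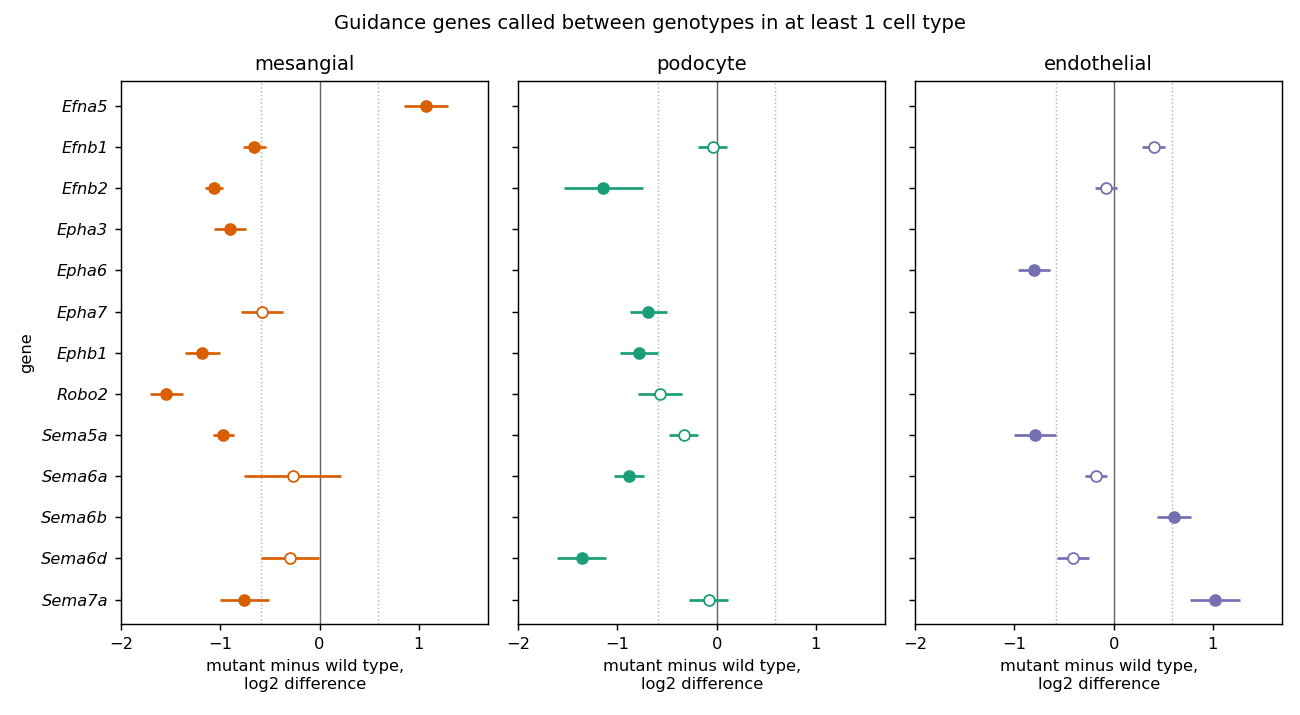
Log2 difference of mutant minus wild type, with bars for the standard error of the fit, for the 13 guidance genes called in at least 1 cell type, 3 arrays against 3 in each panel. Filled points were called, open points were tested and not called, no point means that no array of the cell type reached a signal of 100, and dotted lines mark a fold of 1.5. *Efnb2* lies left of the line in mesangial cells (-1.06) and podocytes (-1.14) and near 0 in endothelial cells (-0.07), and *Sema7a* lies on opposite sides in mesangial (-0.76) and endothelial cells (1.02).

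Whether a genotype difference itself differed between cell types was tested by interaction contrasts over all 18 arrays, in which 38 members and 13523 transcript clusters entered. Between endothelial and mesangial cells 4 members passed an adjusted p of 0.05, where 1.07% of all clusters did. *Sema7a* differed most, by 1.78 (standard error 0.37, adjusted p = 0.0285), its difference being positive in endothelial and negative in mesangial cells. *Ephb1* differed by 1.12 (standard error 0.24, adjusted p = 0.0353), *Efnb1* by 1.06 (standard error 0.18, adjusted p = 0.00819) and *Epha3* by 0.92 (standard error 0.21, adjusted p = 0.0497). For *Efnb1* the mutant and wild type endothelial signals were 199, 216 and 234 and 172, 143 and 176, higher in mutants without overlap, where mesangial cells had the reverse. *Ephb1* and *Epha3* were under a signal of 100 in all endothelial arrays, with 46.8 to 52.2 and 31.7 to 36.3.

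*Efnb1* passed with each of the 18 arrays left out in turn, *Sema7a* with 12, *Ephb1* with 7 and *Epha3* with 6 of them. Without podocyte mutant array C, 8 members passed, with *Efna5*, *Efnb2*, *Plxnd1* and *Robo2* added. *Epha3* did not pass with trend and robust estimation, and with no minimum on the signal *Epha3*, *Ephb1* and *Sema7a* did not pass. *Efnb2*, called in mesangial cells and not in endothelial cells, differed by 0.99 (standard error 0.40, adjusted p = 0.238) and did not pass, and *Robo2* differed by 1.08 (standard error 0.27, adjusted p = 0.0668). Between endothelial cells and podocytes 1 member passed, where 2.11% of all clusters did. This was *Ephb4*, with 0.88 (standard error 0.17, adjusted p = 0.0237): its signals were higher in mutant endothelial cells and lower in mutant podocytes, at 79.5, 78.7 and 81.7 against 105, 101 and 100.1. It passed with 14 of the 18 arrays left out in turn, and without podocyte mutant array A 7 members passed. Between podocytes and mesangial cells none of the 38 passed with limma, where 0.717% of all clusters did. Of the 38, 6 had an unadjusted p under 0.05 in limma, against 12% of all clusters. With trend and robust estimation limma also called none of the members. Without mesangial wild type array C 2 members passed there.

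Other genes of these pathways were read from 2 lists, 17 co-receptors and further ligands and 33 proteins that act inside the cell. In mesangial cells 10 of the 17 and 21 of the 33 were tested, and 1 was called, near the share over all clusters (3.12% lower and 2.08% higher). This was *Arhgef15*, a guanine nucleotide exchange factor downstream of Eph receptors. It had 119, 109 and 108 in mutants and 184, 175 and 189 in wild type arrays, lower without overlap, a log2 difference of -0.71 (standard error 0.08, adjusted p = 0.0141). *Arhgef15* was higher in wild type endothelial arrays, at 370, 417 and 387, and endothelial markers were lower in the same mutant mesangial arrays. The part of other cells in its difference was not tested. In podocytes 2 of 10 tested co-receptors were called lower, where 4.34% of all clusters were. *Kdr*, the VEGF receptor that also serves Sema6D signalling and is 1 of the 12 endothelial markers, had 244, 75.4 and 65.2 against 544, 664 and 535, a difference of -2.44 (standard error 0.46, adjusted p = 0.135). *Nrp1*, the neuropilin through which class 3 semaphorins bind plexins, had 751, 581 and 289.8 against 1372, 1499.7 and 1258, a difference of -1.45 (standard error 0.32, adjusted p = 0.154). *Nrp1* was higher in both other wild type cell types, at 2179, 2470 and 2238 in endothelial and 2236, 2336 and 2336 in mesangial arrays. Of 20 intracellular genes tested, 1 was called lower and 1 higher, where 4.34% and 1.26% of all clusters were. *Chn1*, a Rac-inactivating protein downstream of EphA4, was lower, with 77.3, 50.3 and 35.7 against 143, 78.4 and 93.6 and a difference of -0.97 (standard error 0.32, adjusted p = 0.246). Only wild type array A of *Chn1* reached 100, so that it entered the test through the group in which it was higher. Wild type mesangial arrays had higher signals of *Chn1*, at 322, 334 and 389. *Srgap3*, a partner of Robo receptors, was higher, with 147, 164 and 166 against 66.4, 109.8 and 129 and a difference of 0.70 (standard error 0.24, adjusted p = 0.267). Summed endothelial and mesangial markers were lower in mutant podocyte arrays, and the part of other cells in these podocyte values was not tested.

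In endothelial cells 2 of 11 co-receptors and 2 of 21 intracellular genes were called, all 4 higher in mutants and all with an adjusted p under 0.05, where 2.96% of all clusters were called higher and 1.13% had such an adjusted p in either direction. *Itga1*, the alpha-1 chain that pairs with the beta-1 integrin to bind Sema7A, had 179, 177 and 216 in mutants and 93.2, 64.6 and 70.9 in wild type, 2.52-fold higher, with a log2 difference of 1.34 (standard error 0.15, adjusted p = 0.00834). No wild type array of *Itga1* or of *Chn2* reached 100, so that both entered the test through the mutant arrays, in which they were higher. *Flrt2*, a membrane ligand of Unc5 receptors, had 625, 765 and 839 against 442, 354 and 385, a difference of 0.91 (standard error 0.14, adjusted p = 0.0212). *Chn2*, a relative of *Chn1*, had 177, 158 and 201 against 88.0, 82.7 and 93.5, a difference of 1.02 (standard error 0.11, adjusted p = 0.00726). *Sh2d3c*, an adaptor that binds Eph receptors, had 209, 163 and 191 against 126, 116 and 116, a difference of 0.64 (standard error 0.11, adjusted p = 0.0409). The groups did not overlap for any of the 4. *Serpine2*, a mesangial marker, was also called higher in these arrays, and summed mesangial markers were 810 to 1115 in mutant and 741 to 825 in wild type endothelial arrays, with overlap. A role of other cells in these values was not tested.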

How the data were processed

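Sorted cells gave RNA that went through 1 round of Ribo-SPIA amplification and onto Mouse Gene 1.0 ST arrays from Affymetrix. Per the labels, the authors made and deposited intensity values by RMA (background correction, quantile normalization, summary over probes) for 28856 transcript clusters in 18 arrays. The table's 18 further columns of values per array, named normalized, were not used. The series record names Exon arrays and GeneBASE, which the file header does not. The sources give no measure of background, so the number of arrays limits the precision. Array medians were 62.8 to 71.6, and 9697 to 10097 clusters per array reached 100.

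Linear models were fitted to log2 signals in limma (version 3.58.1, R version 4.3.3) with moderated variances. Genotypes were compared within a cell type over 6 arrays, cell types over the 9 wild type arrays, and interactions over all 18. A cluster was tested if any array of the groups compared reached 100. Calls were an unadjusted p under 0.05 with a fold over 1.5 between genotypes, a Benjamini-Hochberg adjusted p under 0.05 with the same fold between cell types, and an adjusted p under 0.05 for interactions. Adjustment ran over all clusters tested. The fits were tested on simulated data. P-values measure the spread between the arrays of these groups.

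Values per array are given for members called in a genotype or interaction test, for the 5 largest calls in each direction between wild type cell types, and for *Sema7a*, *Sema3g* and *Efnb2*. Other members named were chosen after their values were seen. The members, lists and tests were chosen with earlier results of these data known. Alternatives were no minimum, the minimum in all 3 arrays of a genotype, 1 fit over 18 arrays, a fit over the 2 cell types compared, adjusted p, a fold over 2, trend and robust estimation, array medians subtracted, clusters with 1 symbol, any cluster of a gene, and each array left out. RNA sequencing was not used here. Some items are not reported here.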

Additional observations from a re-analysis of the deposited data

Results flagged for a closer look

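For 5 guidance genes the genotype difference itself differed between 2 cell types, by the interaction test with an adjusted p under 0.05 over all transcript clusters. The endothelial difference exceeded the mesangial one by 1.78 on the log2 scale for *Sema7a*, by 1.12 for *Ephb1*, by 1.06 for *Efnb1* and by 0.92 for *Epha3*. For *Sema7a* and *Efnb1* mutants were higher in endothelial cells and lower in mesangial cells, in each case in 3 of 3 arrays against 3. For *Ephb1* and *Epha3* the difference lay in mesangial cells, and all endothelial arrays were under a signal of 100. *Epha3* did not pass with trend and robust estimation, and *Epha3*, *Ephb1* and *Sema7a* did not pass with no minimum on the signal. The endothelial difference exceeded that of podocytes by 0.88 for *Ephb4*, higher in mutants in the former and lower in the latter.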

How the results depend on the processing

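Counts of members called are given here where an alternative moved them by over 1.5 times. With an adjusted p under 0.05 the genotype comparisons called 0 members higher and 6 lower in mesangial cells, 0 lower in podocytes, and 0 higher and 0 lower in endothelial cells. With a fold over 2, 3 were lower in mesangial cells, 2 lower in podocytes, 1 higher and 0 lower in endothelial cells, 3 lower in wild type podocytes than in mesangial cells and 9 higher in wild type podocytes than in endothelial cells. With the minimum in all 3 arrays of a genotype, 0 were higher in mesangial cells and 1 lower in endothelial cells. With array medians subtracted, 4 were higher in endothelial cells and 3 passed the interaction of endothelial cells and podocytes. With no minimum, 1 passed the interaction of endothelial and mesangial cells. With each array left out in turn, members called higher were 0 to 1 in mesangial cells and 1 to 4 in endothelial cells, and members called lower 5 to 8 in mesangial cells, 4 to 6 in podocytes and 1 to 2 in endothelial cells. In the same way wild type podocytes had 7 to 11 higher than mesangial cells, and the interactions gave 1 to 7 higher and 0 to 1 lower between endothelial and mesangial cells, 0 to 6 and 0 to 1 between endothelial cells and podocytes, and 0 to 2 lower between podocytes and mesangial cells. The endothelial count of higher members was 1 without mutant array A or wild type array B and 4 without mutant array B, and that of lower members 1 without wild type array C. The mesangial count of higher members was 0 without mutant array C. The 11 came without mesangial wild type array C, the 7 without podocyte mutant array C, the 6 without podocyte mutant array A and the 2 without mesangial wild type array C, and the first interaction kept within 1.5 times of 4 only without endothelial wild type A, mesangial wild type C or podocyte mutant A, mutant B, wild type A or wild type C. The second was 0 without endothelial mutant A, mutant C or wild type B or podocyte wild type A, and 2 without endothelial wild type A. Lower members, none in the interactions otherwise, were 1 in the first without endothelial mutant C, mesangial mutant A, mesangial wild type C or any podocyte mutant array, and 1 in the second without mesangial wild type C, podocyte mutant A or podocyte wild type C. 3 differences that were not called turned sign with an array left out: in podocytes *Sema3g* ran from -0.35 to 0.029 (positive without mutant array A) and *Sema7a* from -0.24 to 0.073 (0.0099 without mutant array C, 0.073 without wild type array B), and in endothelial cells *Efnb2* from -0.16 to 0.012 (positive without mutant array A). The other counts, 257 in all, stayed within 1.5 times, and of the values of single genes 2451 kept direction and side, 117 lost a call and 47 gained one. The causes were not tested. No paired analysis was possible because the labels number the samples from 1 to 18 across groups, so that no number is shared between groups, and the columns carry none. The number of arrays, 3 a group, and signals near or under 100 limit what could be seen.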
